A study of Arabidopsis thaliana with 12 samples.

Results

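The genes described here are 79 Arabidopsis thaliana loci known in the reference used only by an AT locus code, whose log ratio lay below 0 on all 12 arrays of the series and averaged -0.8 or less on the log2 scale. Each locus is measured by 1 probe. They were taken from 8015 locus-only probes with a value on every array, among 21500 probes in all. Of these, 619 lay below 0 on all 12 arrays. By the same thresholds 17 of the 1317 probes with a gene symbol qualified, and 237 probes of every kind. The ratios against Col-0 made the choice: the members were selected on these measured values, and their side and their mean are a description that carries no test.

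Each array compared RNA from the aerial parts of a transformant line (Cy3) with RNA from wild-type Col-0 plants (Cy5). The 6 lines are re-transformants of the rice full-length cDNA clones AK069096, AK073112, AK073675, AK065297, AK102323 and AK073210, with 2 replicate arrays each. Growth was at 22 °C under long days of 16 h of light. No source used here gives the age of the plants, the promoter driving the cDNA, the number of independent transformants behind a line, any pooling of plants or what the cDNAs encode. Nothing says that the 2 arrays of a line came from separate plants, so p-values measure only the spread between these arrays. The dyes were never swapped, and which RNA is on top of the deposited ratio is not settled. Values are therefore placed on the negative or positive side of the ratio, never called higher or lower in the plants. The log base is not stated either; base 10 was assumed before conversion to log2, and each log2 value and the threshold on the mean rest on it. A ratio holds no expression level, so levels cannot be compared between genes and the labelled tissue could not be checked against its markers. In whole aerial parts, fewer cells of a type and less RNA per cell cannot be told apart.

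A locus code in Arabidopsis states the chromosome and the order of a gene along it, and says nothing of what the gene does. The reference names no product for these 79 protein-coding loci. Only 2 carry a synonym other than a clone name. AT4G08160 is also called ATXYN3, a xylanase name, and AT1G30260 is also listed as AGAMOUS-like 79, a name of the MADS-box class that may belong to another locus, so no role is given for it. The family names below are general background on the Arabidopsis genome, added after the values were seen. They were given to 56 loci, the other 23 are left without one, and no test rests on them. Among these families, pectin methylesterases remove methyl groups from cell wall pectin and so change how stiff the wall is. Class III peroxidases act on phenolic compounds in the wall, chitinases cut a polymer of fungal walls, and thionins are small antimicrobial peptides of shoots.

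The array labelled AK073112 replicate 2 stood apart from its own line. Over the 79 members it correlated at 0.968 with AK069096 replicate 2 and at 0.892 with AK069096 replicate 1, but at 0.310 with AK073112 replicate 1. Over all 21494 probes tested these correlations were 0.816, 0.799 and 0.352, and all arrays share Col-0 as the second RNA. The median absolute difference between the replicates of a line over the members was 1.12 for AK073112, and between 0.173 and 0.262 for the other 5 lines. The values of replicate 2 go against its label, and those of replicate 1 set it apart as well. Whether either array holds RNA of AK073112 was not tested. Every mean or test of AK073112 as a line therefore rests on labels in doubt. AK073112 is therefore given array by array, and comparisons between lines are given both with and without it. Below, the other 4 lines are AK073675, AK065297, AK102323 and AK073210.

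**Figure D1:**
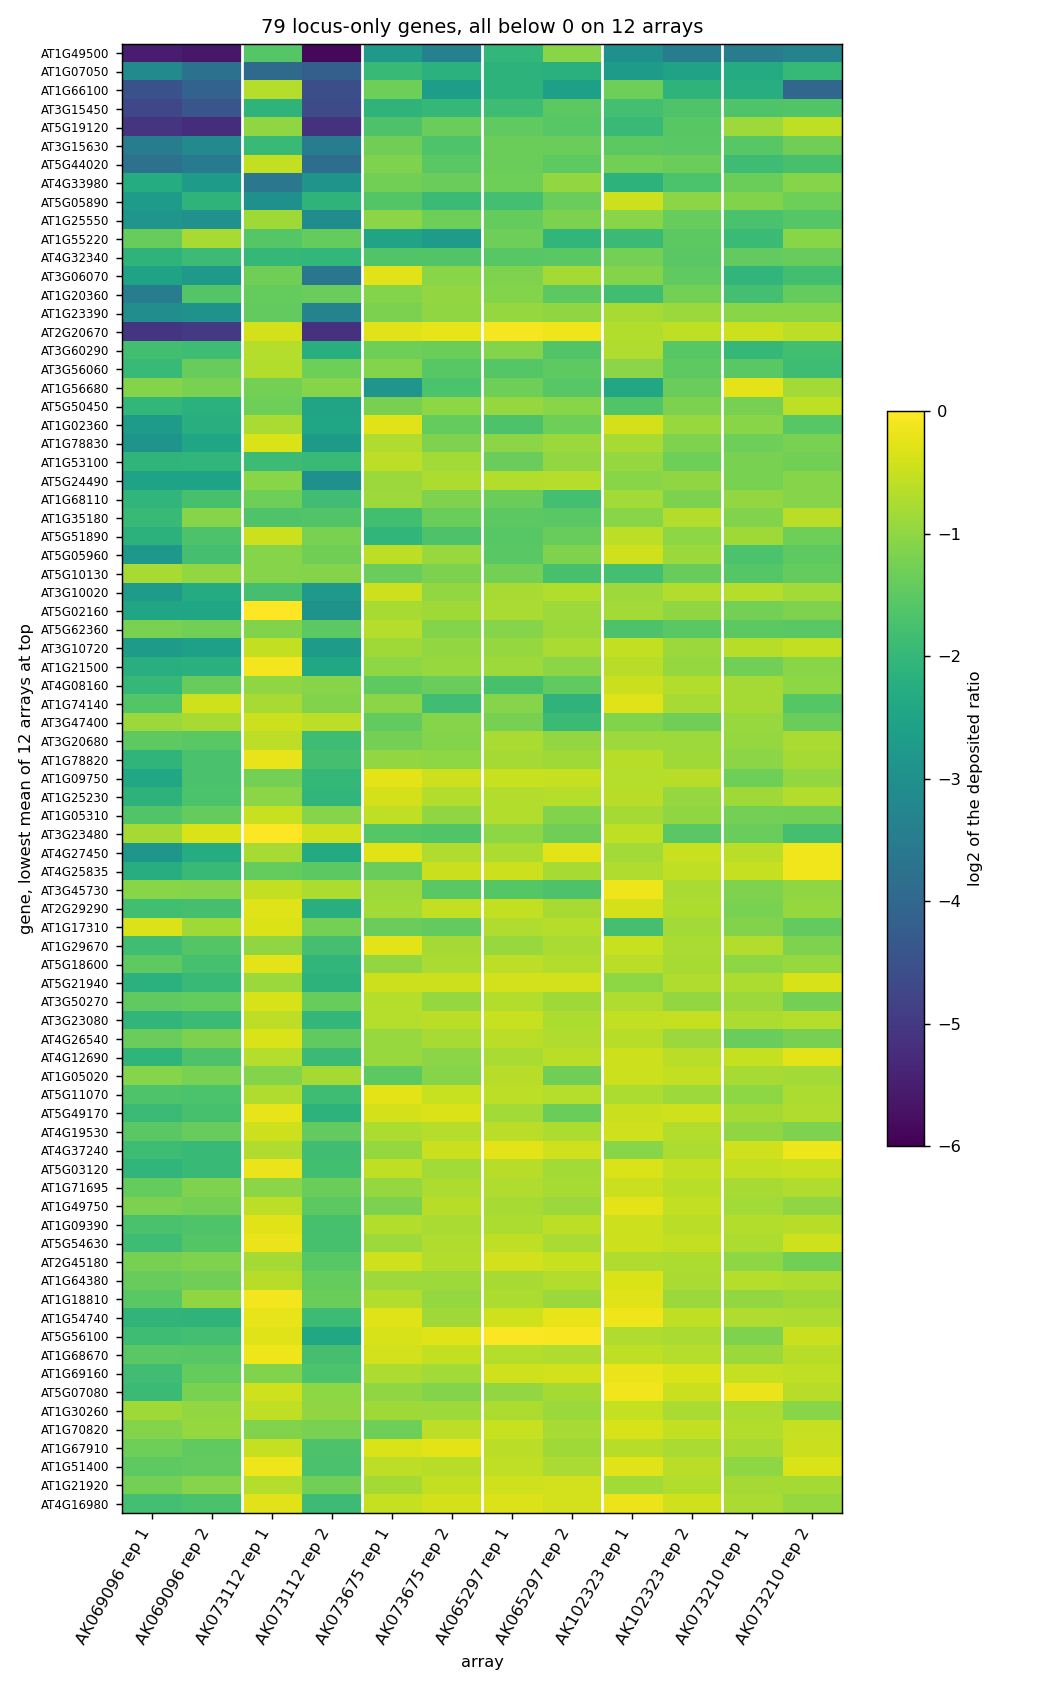
Log2 of the deposited ratio of the 79 genes (down the page, lowest mean of the 12 arrays at the top) on each of the 12 arrays (across, 2 for each line). Dark cells mark ratios far on the negative side, and the columns of AK069096 and of the array labelled AK073112 replicate 2 are the darkest for most genes.

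The members' medians were -1.94 and -1.72 on the 2 AK069096 arrays, and -0.69 and -1.84 on AK073112 replicates 1 and 2. In the other lines they were -0.90 and -0.97 in AK073675, -0.79 and -0.90 in AK065297, -0.70 and -0.88 in AK102323, and -1.01 and -1.0 in AK073210. The members thus lay farthest out on 3 arrays, the pair of AK069096 and the second of AK073112. Those 3 arrays also had the widest ratios over all probes, with standard deviations of 0.659, 0.621 and 0.675, against 0.395 to 0.567 on the other 9. Measured in those standard deviations the members' medians were -2.95 and -2.77 in AK069096 and -2.73 on AK073112 replicate 2. They ran from -2.43 to -1.65 on the arrays of the other 4 lines and stood at -1.28 on AK073112 replicate 1. The lowest line mean of the 6 was that of AK069096 for 60 of the 79 genes, and the highest was that of AK102323 for 32. The medians and both counts include genes that became members through low values in AK069096 or AK073112. How far those arrays lay from the rest is thus partly given by the choice. The shares over all probes were not counted, so neither count is read as a trait of a line.

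**Figure D2:**
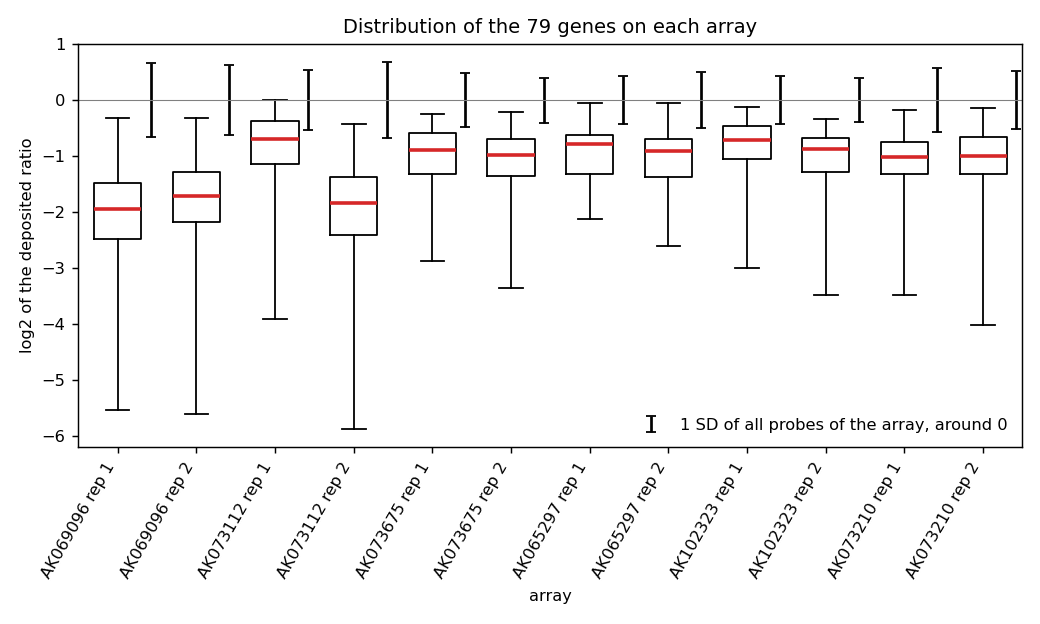
Distribution of the 79 genes' log2 ratios on each array: boxes span the quartiles, red lines are medians, whiskers reach the lowest and highest gene. Black bars show 1 standard deviation of all probes of that array around 0, which runs from 0.395 to 0.675.

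The means over the 12 arrays ran from -3.43 to -0.80, with a median of -1.06. In 49 genes the mean was -1 or less, and in 5 it was -2 or less. The gene with the lowest mean was AT1G49500, for which no family is given here. Its log2 ratios were -5.55 and -5.61 in AK069096, -1.58 and -5.88 in AK073112, -2.77 and -3.36 in AK073675, -2.02 and -1.06 in AK065297, -2.99 and -3.49 in AK102323 and -3.49 and -3.32 in AK073210. AK069096 and AK073112 replicate 2 were at the bottom and AK065297 nearest to 0, a span of over 4 log2 units between arrays.

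AT1G07050 encodes a protein with a CCT motif, a domain shared with regulators of flowering and of the clock. It had -3.13 and -3.75 in AK069096, -3.92 and -4.19 in AK073112, -1.95 and -2.17 in AK073675, -2.13 and -2.19 in AK065297, -2.71 and -2.53 in AK102323 and -2.32 and -1.98 in AK073210. Here both AK073112 arrays were the lowest and AK069096 came next, apart from the other 4 lines. The replicates of each line lay close together.

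AT1G66100 belongs to the thionins. It had -4.48 and -4.12 in AK069096, -0.66 and -4.55 in AK073112, -1.33 and -2.66 in AK073675, -2.12 and -2.61 in AK065297, -1.32 and -2.10 in AK102323 and -2.27 and -4.02 in AK073210. Its replicates disagreed in AK073112, AK073675 and AK073210. AK069096 lay below all 8 arrays of the other 4 lines, though AK073210 replicate 2 came close to it.

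AT3G15450 belongs to a small family named for aluminium induction and for its YGL and LRDR motifs. It had -4.72 and -4.38 in AK069096, -2.09 and -4.62 in AK073112, and a lowest, median and highest of -2.10, -1.73 and -1.51 on the 8 arrays of the other 4 lines. AK069096 and AK073112 replicate 2 lay below all the rest. AT5G19120, of the aspartyl protease family, had -5.08 and -5.22 in AK069096, -0.99 and -5.12 in AK073112, and a lowest, median and highest of -1.97, -1.51 and -0.58 on the 8 arrays of the other 4 lines. In this gene the same 3 arrays were set far apart from the other 9.

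AT3G15630, with no family given, had -3.45 and -3.18 in AK069096, -1.96 and -3.49 in AK073112, and a lowest, median and highest of -1.65, -1.44 and -1.31 on the 8 arrays of the other 4 lines. The acid phosphatase-type gene AT5G44020 had -3.75 and -3.52 in AK069096, -0.54 and -3.85 in AK073112, and a lowest, median and highest of -1.87, -1.42 and -1.15 on the 8 arrays of the other 4 lines. In both genes AK069096 did not overlap with the other 4 lines, and AK073112 replicate 1 lay nearer to 0 than replicate 2.

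AT4G33980 is a cold-regulated gene that feeds back on the circadian clock, of the same small family as COR27. It had -2.29 and -2.69 in AK069096, -3.62 and -2.89 in AK073112, -1.28 and -1.38 in AK073675, -1.33 and -0.97 in AK065297, -2.12 and -1.70 in AK102323 and -1.36 and -1.10 in AK073210. Both AK073112 arrays were below every other array, with AK069096 next. The UDP-glycosyltransferase gene AT5G05890 had -2.69 and -2.09 in AK069096, -2.99 and -2.11 in AK073112, and a lowest, median and highest of -1.92, -1.35 and -0.47 on the 8 arrays of the other 4 lines. AK073112 replicate 1 was the lowest array for it.

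AT1G25550 encodes a GARP-type myb-like repressor of genes induced by nitrate shortage. It had -2.88 and -2.95 in AK069096, -0.85 and -3.08 in AK073112, and a lowest, median and highest of -1.73, -1.36 and -1.05 on the 8 arrays of the other 4 lines. AT1G55220, with no family given, went the other way between lines, with -1.39 and -0.77 in AK069096, -1.58 and -1.41 in AK073112, -2.50 and -2.68 in AK073675, -1.33 and -2.04 in AK065297, -1.91 and -1.52 in AK102323 and -1.91 and -1.06 in AK073210. AK073675 was lowest there and AK069096 replicate 2 nearest to 0. AT4G32340, also without a family here, had -2.11 and -1.89 in AK069096, -1.99 and -2.02 in AK073112, and a lowest, median and highest of -1.64, -1.54 and -1.25 on the 8 arrays of the other 4 lines, the narrowest spread among the 12 genes with the lowest means.

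Several families with more than 1 member are of cell wall or extracellular proteins, and several are of other kinds. The share of such families over all probes was not counted, so no theme is read from them. Of 3 pectin methylesterase genes, AT3G10720 had a mean of -1.23, AT3G47400 one of -1.10 and AT1G05310 one of -1.03, beside AT5G62360 of the pectin methylesterase inhibitor family at -1.26. They did not share a pattern over lines. AT3G10720 had -2.71 and -2.61 in AK069096, -0.55 and -2.71 in AK073112, and a lowest, median and highest of -0.98, -0.81 and -0.55 on the 8 arrays of the other 4 lines. AT3G47400 had -0.90 and -0.77 in AK069096, -0.46 and -0.59 in AK073112, and a lowest, median and highest of -1.90, -1.27 and -0.92 on the 8 arrays of the other 4 lines. AK069096 was thus the lowest line for the first and lay above all 8 arrays of the other 4 lines for the second. The peroxidase genes AT5G51890 and AT1G71695 had means of -1.33 and -0.89, the chitinase genes AT1G56680 and AT1G02360 means of -1.41 and -1.40, and the GDSL-type lipase genes AT1G29670 and AT1G09390 means of -1.0 and -0.88. Single wall genes were the xylanase gene AT4G08160 (-1.21), the arabinogalactan protein gene AT4G16980 (-0.80) and AT5G10130 (-1.31), whose protein is of the pollen allergen Ole e 1 type.

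The lectin-domain genes AT1G78830 and AT1G78820 are direct neighbours, with 0 protein-coding genes between them, and had means of -1.39 and -1.06. AT1G78830 had -2.90 and -2.46 in AK069096, -0.33 and -2.73 in AK073112, and a lowest, median and highest of -1.33, -1.10 and -0.71 on the 8 arrays of the other 4 lines. AT1G78820 had -2.08 and -1.72 in AK069096, -0.21 and -1.77 in AK073112, and a lowest, median and highest of -1.04, -0.85 and -0.65 on the 8 arrays of the other 4 lines. In both, AK069096 and AK073112 replicate 2 were at the bottom and AK073112 replicate 1 at the top, but near-identical neighbours can share signal on a probe, which ratios cannot resolve. The other close pair, AT5G05890 and AT5G05960, has 6 protein-coding genes between its members, and AT5G05960 is of another family, that of lipid-transfer proteins (-1.31), with AT2G45180 (-0.88).

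Regulators among the members included the second GARP-type gene AT1G68670 (-0.85), the AP2/ERF gene AT1G64380 (-0.87), the MADS-box gene AT1G17310 (-1.01) and AT1G18810 of the phytochrome kinase substrate family (-0.85), whose proteins act in light-directed growth. The F-box genes were AT1G20360 (-1.57) and AT1G23390 (-1.55). AT1G23390 carries Kelch repeats and marks chalcone synthase, the entry enzyme of flavonoid synthesis, for breakdown. It had -3.05 and -2.92 in AK069096, -1.44 and -3.32 in AK073112, and a lowest, median and highest of -1.17, -1.01 and -0.77 on the 8 arrays of the other 4 lines. Its AK069096 and AK073112 arrays were all below the other 4 lines, with AK073112 replicate 1 much nearer to them.

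Enzymes of metabolism were AT3G60290 of the 2-oxoglutarate oxygenases (-1.50), the GMC oxidoreductase gene AT3G56060 (-1.42), the tropinone reductase-type gene AT2G29290 (-1.01), AT3G23480 of the cyclopropane fatty acid synthase type (-1.03) and the phosphoglucomutase-type gene AT1G70820 (-0.81). The HXXXD acyltransferase genes AT3G50270 and AT5G07080 had -0.97 and -0.83, and the purple acid phosphatase gene AT1G25230 had -1.04. Plastid proteins were represented by AT5G24490, of a 30S ribosomal type (-1.37), and AT1G51400, a small photosystem II protein (-0.81). Membrane and signalling families were the leucine-rich repeat genes AT4G26540 (-0.96) and AT1G49750 (-0.89), the TIR-type immune receptor gene AT4G19530 (-0.91) and the clathrin assembly genes AT1G68110 and AT1G05020 (-1.35 and -0.95). Further families were the second YGL and LRDR gene AT4G27450 (-1.02), the second aspartyl protease gene AT1G09750 (-1.06), the glutaredoxin gene AT5G18600 (-0.99) and the AAA ATPase gene AT4G25835 (-1.02).

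Differences between lines were tested with limma's moderated test over all 21494 probes, with Benjamini-Hochberg adjusted p-values and a threshold of 0.05. The choice of members bears on them, since every array entered the mean that chose them. For 35 of the 79 genes the mean of the 8 arrays of the other 4 lines was above -0.8, so they became members through AK069096 or AK073112 and had to be low there. For these 35 the values in AK069096 and AK073112 are a description and carry no test. The remaining 44 reached -0.8 on those 8 arrays by themselves, although their AK069096 and AK073112 values also had to lie below 0.

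With all 12 arrays, 5 of the 79 members differed among the 6 lines by the moderated F-test, against 3.36% of all probes. Of the 5, 3 were among the 44: AT1G07050 (adjusted p = 0.0157), AT4G33980 (0.0266) and AT1G53100 (0.0278). The others, AT1G69160 and AT3G10020, were among the 35. Without both AK073112 arrays 49 members differed among the remaining 5 lines, 20 of the 44 and 29 of the 35, against 15.3% of all probes. With AK073112 replicate 1 alone left out the count was 53 (19% of all probes), and with its replicate 2 alone left out it was 52 (26%).

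Most members had their lowest line mean in AK069096. This is partly given by the choice, as are the counts over all members below. None of them is read as a trait of the line. Against the other 5 lines 4 members passed, all on the negative side, where 0.447% of all probes passed, but 3 of them were among the 35. AT1G53100, of the core-2 branching glycosyltransferase type, was the 1 among the 44. It had -2.07 and -2.04 in AK069096, -1.89 and -1.97 in AK073112, and a lowest, median and highest of -1.36, -1.09 and -0.59 on the 8 arrays of the other 4 lines. Its AK069096 minus other lines difference was -0.82 ± 0.13 (SE, adjusted p = 0.0424), and it did not pass without AK069096 replicate 1 (adjusted p = 0.228) or replicate 2 (adjusted p = 0.181). Of the 3 genes chosen through the low arrays, AT3G10020, with no family given, had -2.70 and -2.30 in AK069096, -1.76 and -2.75 in AK073112, and a lowest, median and highest of -0.98, -0.74 and -0.47 on the 8 arrays of the other 4 lines. AK073112 replicate 1, too, lay below the other 4 lines there. The line differences in AK069096 were -1.45 for AT3G10020, -1.31 for AT4G25835 and -0.95 for AT1G69160. Leaving out AK073112 replicate 1 put 50 members past the threshold on either side (14.7% of all probes), and leaving out its replicate 2 put 60 (26.6%).

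Against the other 4 lines alone, with both AK073112 arrays left out, 27 of the 44 passed on the negative side in AK069096, where 12.2% of all probes passed. Another 1 passed on the positive side, where 13.5% of all probes did, and 16 did not pass. The median difference of the 44 was -0.87. Genes at or above 0 in AK069096 could not become members, so this split by side is partly given by the choice. Of the 35 that had to be low, 32 lay past the threshold on the negative side, which makes 59 of the 79. Both AK069096 arrays lay below all 8 arrays of the other 4 lines for 57 of the 79 members (14.7% of all probes) and above all 8 for 2 (16.7%), counts that include the 35. After quantile normalization, which gives all arrays the same width, 11 of the 44 passed on the negative side (3.46% of all probes) and 1 on the positive side (4.67%).

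**Figure D3:**
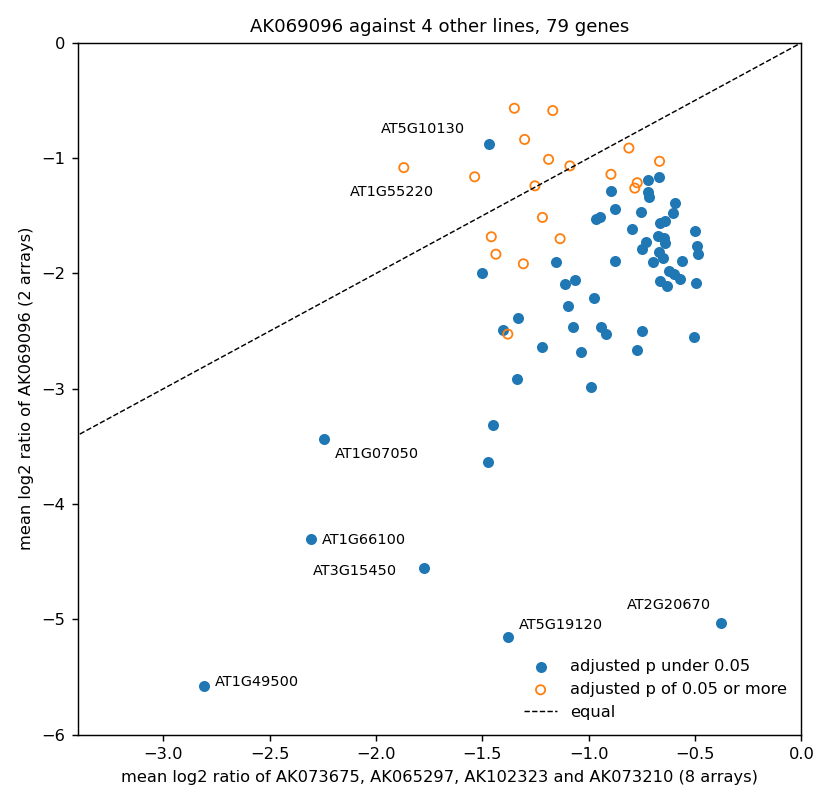
Mean log2 ratio of AK069096 (2 arrays, vertical axis) against the mean of the 8 arrays of AK073675, AK065297, AK102323 and AK073210 (horizontal axis) for the 79 genes, with the dashed line marking equal values. Filled points had an adjusted p under 0.05 in AK069096 against those 4 lines. The 35 genes right of -0.8 on the horizontal axis became members through AK069096 or AK073112; among them AT2G20670 lies at -5.03 in AK069096 and at -0.38 in the other 4.

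Of the 44, AT5G19120 (-3.77 ± 0.14, SE, limma adjusted p = 0.000124) and AT3G15450 (-2.78 ± 0.12, limma adjusted p = 0.000184), whose array values stand above, had the lowest AK069096 minus other 4 lines differences. AT1G49500 differed by -2.77, AT5G44020 by -2.17, AT1G66100 and AT1G23390 both by -2.0 and AT3G15630 by -1.86, all past the threshold. For AT1G66100 the adjusted p was 0.0351, and it ended above the threshold when either AK069096 array was left out (0.183 without replicate 1 and 0.128 without replicate 2). After quantile normalization it stood at -0.85 (adjusted p = 0.468) and AT1G49500 at -2.03 (adjusted p = 0.0842), neither past the threshold. Among the 35, the gene farthest out was AT2G20670, of the DUF506 family, whose function is not known. It had -5.08 and -4.98 in AK069096, -0.39 and -5.15 in AK073112, -0.27 and -0.21 in AK073675, -0.08 and -0.16 in AK065297, -0.68 and -0.57 in AK102323 and -0.46 and -0.60 in AK073210. It lay below -1 on the AK069096 arrays and AK073112 replicate 2 alone, the arrays through which it became a member, so its AK069096 minus other 4 lines difference of -4.65 is a description.

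Few families had more than 1 gene among the 44. Both lectin-domain genes passed on the negative side in AK069096 against the other 4 lines (-1.64 and -1.02). The F-box genes split, with AT1G23390 past the threshold and AT1G20360 at -1.15 (adjusted p = 0.106), and so did the clathrin assembly genes, with AT1G68110 at -0.74 past it and AT1G05020 at -0.25 (adjusted p = 0.366). Of the chitinase genes AT1G02360 passed at -1.39, while AT1G56680 stood at 0.37 (adjusted p = 0.494). Of the pectin methylesterases AT1G05310 (-0.56) passed on the negative side, while AT3G47400 stood at 0.46 (adjusted p = 0.142) and AT3G10720, among the 35, at -1.89. In other families 1 gene was among the 44 and its relatives among the 35. The GARP-type gene AT1G25550 passed at -1.58, the HXXXD gene AT3G50270 at -0.57 and the lipid-transfer gene AT5G05960 at -1.19. The peroxidase gene AT5G51890 stood at -0.61 and did not pass (adjusted p = 0.066). The leucine-rich repeat gene AT4G26540 passed at -0.39. Of their relatives among the 35, given as a description, AT1G68670 stood at -0.90, AT5G07080 at -0.90, AT2G45180 at -0.47, AT1G71695 at -0.57 and AT1G49750 at -0.44. The single member past the threshold on the positive side was the Ole e 1-type gene AT5G10130 (0.59 ± 0.16, adjusted p = 0.0395). It had -0.77 and -0.98 in AK069096, -1.08 and -1.11 in AK073112, and a lowest, median and highest of -1.79, -1.41 and -1.19 on the 8 arrays of the other 4 lines. AT1G55220 (0.79, adjusted p = 0.0986) and AT3G23480 (0.78, adjusted p = 0.071) lay on the same side without passing.

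In AK073112, 3 members passed against the other 5 lines, all on the negative side, where 1.23% of all probes passed. These were AT1G07050 (-1.57 ± 0.17, adjusted p = 0.0115), AT4G33980 (-1.64 ± 0.21, adjusted p = 0.0144) and AT1G53100 (-0.66 ± 0.13, adjusted p = 0.0446). The 2 arrays of this line lay on the same side of the mean of the other 5 lines for these genes. With replicate 1 alone standing for the line, its spread taken from the other lines, AT1G07050 differed by -1.43 (adjusted p = 0.00875) and AT4G33980 by -2.0 (adjusted p = 0.00342). With replicate 2 alone they differed by -1.70 (adjusted p = 0.00834) and -1.27 (adjusted p = 0.017). AT1G53100 did not pass with either array alone (adjusted p = 0.0522 and 0.0549). None of the 3 passed after quantile normalization (adjusted p = 0.158, 0.159 and 0.394) or with array weights (0.723, 0.837 and 1).

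Many other members had the 2 AK073112 arrays on opposite sides of the mean of the other 5 lines. AK069096 is among those lines, and low values in AK069096 and AK073112 made some genes members. A positive side for replicate 1 and a negative side for replicate 2 are thus partly given by the choice. In AT2G20670 replicate 1 stood at -0.39, inside the range of the 8 arrays of the other 4 lines (-0.68 to -0.08). It was still 0.92 above the mean of the other 5 lines. No count here is read as a trait of the members. With replicate 1 alone 23 members passed on the positive side (10.6% of all probes) and 3 on the negative side (11.5%). With replicate 2 alone 44 passed on the negative side (6.59%) and 0 on the positive side (4.89%), but 27 of the genes so called had become members through AK069096 or AK073112. In all 20 members passed with each array but in opposite directions, against 2.48% of all probes. Replicate 2 lay below all 8 arrays of the other 4 lines for 59 members (23.8% of all probes) and above them for 3 (23.5%). Replicate 1 lay below them for 12 (25.5%) and above them for 27 (22.8%). The counts of arrays lying outside the other 4 lines cover all members, those chosen through AK069096 or AK073112 included. AT5G02160, with no family given, shows the gap, with -2.45 and -2.48 in AK069096, -0.01 and -2.93 in AK073112, and a lowest, median and highest of -1.26, -0.87 and -0.76 on the 8 arrays of the other 4 lines.

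**Figure D4:**
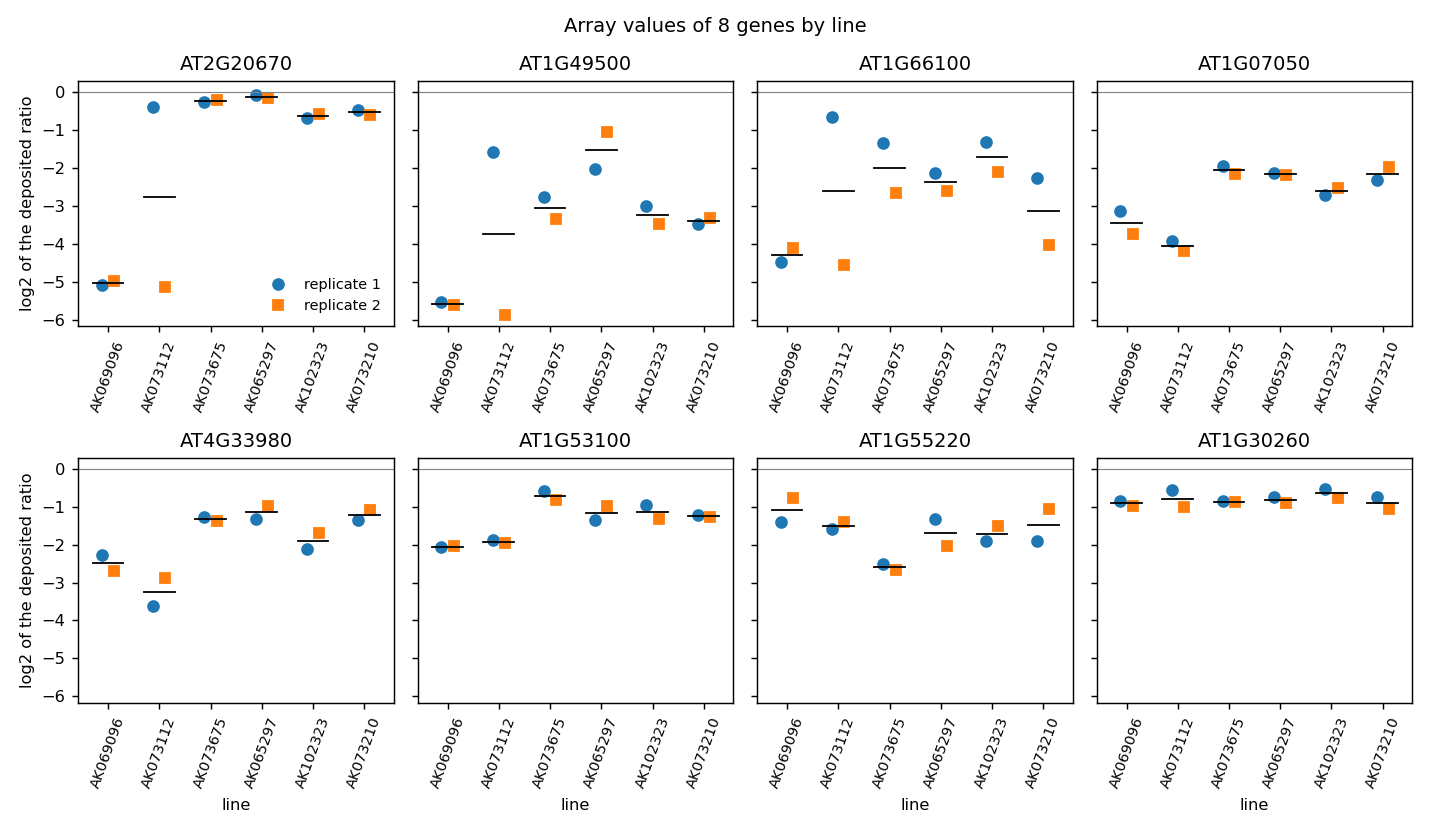
Log2 ratio of 8 genes (one panel each) in the 6 lines, with replicate 1 as blue circles, replicate 2 as orange squares and the line mean as a bar. In AT2G20670, AT1G49500 and AT1G66100 the replicates of AK073112 are far apart; in AT1G07050, AT4G33980 and AT1G53100 they are close, and AT1G30260 stays between -1.07 and -0.53 throughout.

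No member passed against the other 5 lines in AK073675, AK065297, AK102323 or AK073210, comparisons in which 0%, 0.0093%, 0.0791% and 1.45% of all probes passed on either side. At an unadjusted p under 0.05 there were 17, 14, 15 and 12 members, against 11.2%, 10.3%, 11% and 15.5% of all probes. With AK073112 replicate 1 alone left out, 22, 22, 22 and 16 members passed, against 3.56%, 3.62%, 3.06% and 5.5% of all probes. Without both AK073112 arrays 1, 2, 2 and 5 members passed in these lines, all on the positive side (0.0326%, 0.0605%, 0.177% and 1.5% of all probes). In each comparison above AK069096, on whose low values part of the 35 became members, is among the lines on the other side. The positive side is thus partly given by the choice. The counts at an unadjusted p and those with AK073112 replicate 1 left out cover all 79 members. They were not split by this choice, so neither is read as a trait of the members. Without both AK073112 arrays AT2G20670, one of the 35, passed in all 4 lines. The others were AT5G24490 in AK065297, AT1G23390 in AK102323, and AT3G15450, AT5G19120 (1.76), AT1G23390 and AT3G10720 (also one of the 35) in AK073210. With all 12 arrays, differences from the other 5 lines were above 0 for 60 of the 79 members in AK073675. The counts were 62 in AK065297, 71 in AK102323 and 54 in AK073210. The members' medians in these 4 lines were 0.31, 0.31, 0.42 and 0.17. Below 0 lay 19, 17, 8 and 25 members, against 49.3%, 50.05%, 50.4% and 50.4% of all probes. The other 5 lines include AK069096 and AK073112 here, so the positive side is again partly given by the choice. AK073675 had the lowest line mean of the 6 for 5 genes. Among them, AT1G55220 had a line mean of -2.59 there and AT1G56680 one of -2.29, against -1.08 and -1.16 in AK069096, but neither gene passed in AK073675.

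The standard deviation of a member over the 12 arrays ran from 0.165 to 2.13, with a median of 0.559. AT1G30260 varied least, with -0.85 and -0.98 in AK069096, -0.56 and -1.0 in AK073112, -0.86 and -0.88 in AK073675, -0.73 and -0.91 in AK065297, -0.53 and -0.76 in AK102323 and -0.74 and -1.07 in AK073210. No line stood apart in it. The next were AT4G32340, AT1G21920 of the MORN-repeat type and the peroxidase gene AT1G71695, each with a standard deviation under 0.3. The most variable were AT2G20670, AT5G19120 and AT1G49500.

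Just inside the threshold on the mean were AT1G51400 (-0.81), AT1G21920 (-0.80) and AT4G16980 (-0.80), and just outside it AT1G75460 (-0.80, at -0.79995 before rounding), AT3G08920 (-0.79) and AT2G34930 (-0.79). A further 56 locus-only probes had a mean of -0.8 or less but at least 1 array at 0 or above. The lowest of these, AT3G28510, averaged -2.11 with 10 arrays below 0 and stood at 1.08 on AK073112 replicate 1. No member locus has another probe on the array, so none could be checked with a second probe.

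With all 6 lines set together against Col-0, the contrast that chose the members, all 79 passed on the negative side, as did 24.5% of all probes. There 6 of 6 chlorophyll synthesis genes and 7 of 9 photosynthesis genes also passed on the negative side, with medians of -0.70 and -0.55 over the 12 arrays. On the positive side passed LHCB4.3, an antenna gene of the photosynthesis list (0.56), and the senescence genes SAG29 (1.19) and WRKY6 (0.38). So did the root hair expansin gene EXPA18 (0.48) and VGD1 (0.57), a pollen pectin methylesterase gene. WRKY53 of the senescence list passed on the negative side (-0.58). The other root and pollen markers, EXPA7 (-0.22), AT5G07230 (-0.02), VGDH1 (0.11) and AMS (0.06), did not pass on either side. Nor did RCA of the photosynthesis list (-0.04). The share of all probes passing on the positive side is not given here, so these calls are not read as a trait of a tissue. In AK069096 against the other 4 lines 6 of 6 and 6 of 9 passed on the negative side, with median differences of -0.72 and -0.55, and 12.2% of all probes did so. HEMB1 and CHLI2, of early and mid chlorophyll synthesis, differed by -0.80 and -1.02, and PSB27, a photosystem II assembly gene, by -1.36. Of the markers of pollen and anthers (4 probes), root (2) and senescence (3), 0 passed in AK069096 against the other 4 lines by limma, and 1 of these 9 had an unadjusted p under 0.05. VGD1 had the widest difference of the 9 at -1.27 (adjusted p = 0.0664). The part of these tissues in the members' values was not tested.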

How the data were processed

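Agilent arrays with 2 dyes measured 12 samples, 6 lines with 2 arrays each. The deposited table holds 1 log ratio per probe and array, taken as log10 from its form; Agilent Feature Extraction 7.1.1 appears in the submitters' processing notes. No source used here gives the background method, the dye normalization or the direction of the ratio. Values were divided by 0.30103 to give log2 ratios. Ratios carry no intensities, so dim or saturated spots could not be left out. The number of arrays limits the precision.

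Genes came from the platform's probe list, updated by gene ID to TAIR10.1 (9317 probes matched; 12125 have no gene). Lines were taken from titles, since all descriptions repeat 1 clone. limma 3.58.1 in R 4.3.3 fitted a mean per line (6 residual degrees of freedom) on 21494 probes with 12 values. All tests were two-sided and adjusted by Benjamini-Hochberg, and were checked on simulated data. Members and lists were chosen with earlier results of these data known. Genes were named as the 12 lowest means, members past a line comparison, shared families and those at the threshold; others, such as AT2G20670 and AT1G30260, were chosen after their values were seen. Reference text gave no families. Promoter motifs were not analysed here. Replicate numbers did not pair arrays: deviations of same-numbered arrays correlated between -0.068 and 0.175 over 15 pairs of lines. Alternatives were quantile normalization, a replicate block, array weights, zeros as missing, averaging per locus and leaving out arrays; the combinations without AK073112 were added after seeing the data.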

Additional observations from a re-analysis of the deposited data

Results flagged for a closer look

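Line differences past the threshold by limma (difference from the mean of the other 5 lines) were found for 7 pairs of gene and line. In AK069096 these were AT1G53100 (-0.82), AT3G10020 (-1.45), AT4G25835 (-1.31) and AT1G69160 (-0.95). The last 3 became members through AK069096 or AK073112, so their differences are a description. In AK073112 they were AT1G07050 (-1.57), AT4G33980 (-1.64) and AT1G53100 (-0.66), with its labels in doubt since its 2 arrays disagree over all probes. AT1G53100 was thus below the mean of the other lines in both lines, each being among the other lines of the other. With 2 arrays per line no array could be tested as an outlier within its line.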

How the results depend on the processing

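Counts of members past the threshold depended on the AK073112 arrays. Most counts here stand without a share of all probes and include genes that became members through AK069096 or AK073112. In AK069096 such genes were 3 of the 4, and 32 of the 60 without both AK073112 arrays. Without those arrays the share of all probes differing among lines rose too, from 3.36% to 15.3%. The share on the negative side in AK069096 rose from 0.447% to 12.2%. No change in a count is therefore read as a trait of the members. For differences among the 6 lines the count of 5 became 2 with the replicate block, 46 with array weights and 49 without both AK073112 arrays, and 1 to 53 with single arrays left out. In AK069096 the count of 4 became 1 with quantile normalization, 0 with the replicate block, 55 with array weights and 60 without both AK073112 arrays; with single arrays left out it ran from 0 to 60, reaching 50 without AK073112 replicate 1 and 60 without AK073112 replicate 2. In AK073112 the count of 3 became 0 with quantile normalization and 0 with array weights, and 2 to 44 with single arrays left out. In AK102323 the count of 0 became 1 with quantile normalization, 4 with array weights and 2 without both AK073112 arrays; without those arrays it was 1 in AK073675, 2 in AK065297 and 5 in AK073210. With single arrays left out these 4 lines ran from 0 to 22 in AK073675, AK065297 and AK102323, and from 0 to 16 in AK073210. The rule itself chose 144 genes with exact zeros as missing, 49 with a mean of -1 or less and 153 with -0.6 or less, and 66 to 113 with single arrays left out. For AK069096 against the other 4 lines the count of 60 became 32 after quantile normalization, all 32 among the 60 and 12 of them among the 44 genes not chosen through AK069096 or AK073112, 59 with the replicate block, and 41 to 61 with single arrays left out; AT4G32340 turned to 0.0249 under quantile normalization. The cause of these changes was not tested. Probes averaged per locus changed no count by over 1.5 times.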
